A study of Mus musculus with 12 samples.

Results

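Mitochondria make a small set of respiratory chain proteins on ribosomes of their own, and the protein parts of these ribosomes are encoded by nuclear genes. The transcripts of those genes were followed here in NIH-3T3 cells during labelling of new RNA. Genes were taken by name, as every entry of the deposited table whose symbol was Mrpl or Mrps with a number and at most 1 further letter, which gave 78 of 17419 genes. By their known place in the particle, 51 encode proteins of the large subunit, 26 proteins of the small subunit, and 1, Mrps36, a protein now assigned to the 2-oxoglutarate dehydrogenase complex. Mrps30 and Mrps18a carry small-subunit names but sit in the large subunit and were counted there. Of the 77 ribosomal members, 47 were classed here as having relatives in bacterial ribosomes and 30 as found in mitochondrial ribosomes only. Mrps28 was among the 30, and the class of single members was not checked against sequences.

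NIH-3T3 is an immortalised mouse fibroblast line, and the cells were wild type per the labels. They were given the uridine analogue 4-thiouridine (4sU) at 800 µM for 15, 30, 60, 90 or 120 min, or none (the no4sU group), with 2 replicates, A and B, in each of the 6 groups. In SLAM-seq, iodoacetamide modifies 4sU in the extracted RNA so that it is read as C, and the new-to-total ratio (NTR) is the estimated share of a gene's RNA that was made during labelling. Nothing in the labels says whether replicates came from separate cultures, so p-values measure the spread between these libraries, which may be technical. The title of the series asks how labelling time biases quantification, and the comparisons were therefore each duration with no4sU and the longest with the shortest duration.

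As background, the mitochondrial ribosome is built from rRNAs made inside the organelle and from proteins imported from the cytosol. Its large subunit forms peptide bonds, and its small subunit holds the mRNA and reads the code. Because the products of the particle are subunits of the respiratory chain and ATP synthase, its genes are often studied beside those of the nuclear-encoded respiratory chain and of the cytosolic ribosome. The mRNAs made inside the organelle were not analysed here.

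Between 9917026 and 13739380 reads were counted per library, and the 78 genes took 0.312% to 0.351% of them, with the highest share in no4sU replicate A. All 78 passed the filter on low counts, and their mean counts over the 12 libraries lay between 105 (Mrpl23) and 1499 (Mrpl12), with a median of 448. The fibroblast label was checked against its markers. Col1a1, Col1a2, Col3a1, Fn1, Vim, Thy1 and Pdgfrb were between 78.2 (lowest, Col3a1) and 8323 CPM (a gene's reads scaled to libraries of equal size; highest, Fn1), while Cdh1, Ptprc, Pecam1 and Des had at most 4 reads in any library. Cd68, a macrophage marker, had 47 to 79 reads, and Cdh5, an endothelial marker, 7 to 17.

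The genes share a compact build. All 78 had a coding sequence shorter than the median of the 8957 genes with 100 or more counts on average and a coding transcript in GENCODE M21, with a median of 574.5 bases without the stop codon against 1419. Their median 3′ untranslated region was 331 bases against 1181, and their median 5′ untranslated region 91.5 bases against 188. The share of uridine in the transcript, which sets how many bases can carry 4sU, had medians of 23.8% in the members and 24.6% in all genes, and it ranged from 15.2% to 31.9% among the members.

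RefSeq promoters (GRCm38.p6, 250 bases before to 50 bases after the start) were matched for 69 of the 78 members. The letters CCGGAAG, a core bound by ETS factors, stood on either strand in the promoters of 26 of the 69 (37.7%), against 23.3% of 7237 matched genes with 100 or more counts on average and 8.86% of all 32851 promoters. AAGATGGC, the core of the YY1 motif, stood in 12 (17.4%), against 6.20% and 2.75%. GCATGCGC, part of the motif of nuclear respiratory factor 1 (NRF1), stood in 8 (11.6%), against 6.98% and 2.71%, and TATAAA in 5 (7.25%), against 7.86% and 13.6%. The ETS string ends in the letters AAG with which the YY1 string begins, so that both can stand on overlapping bases, and a match describes letters and not a bound site. Members with the ETS letters had a median NTR at 120 min of 24.2% and those without 26.7%.

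Upstream stretches of 6 members that the results turn on are printed 5′ to 3′, cut where an exon annotated in GENCODE M21 begins, with the ETS letters in capitals where present. Mrps15 and Mrps2 stand near the bottom and the top of the NTR order, Mrpl34 had the largest rise, Mrpl12 the highest level, and Mrps18a and Mrps18c belong to a family of 3 related proteins that differed in NTR.
Mrps15, chr4:126046678-126046924, plus strand: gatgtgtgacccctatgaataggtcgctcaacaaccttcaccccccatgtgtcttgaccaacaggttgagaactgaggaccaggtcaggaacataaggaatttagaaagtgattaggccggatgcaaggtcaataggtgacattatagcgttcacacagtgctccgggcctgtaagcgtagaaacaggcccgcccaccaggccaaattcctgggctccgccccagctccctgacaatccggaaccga
Mrps2, chr2:28467816-28468065, plus strand: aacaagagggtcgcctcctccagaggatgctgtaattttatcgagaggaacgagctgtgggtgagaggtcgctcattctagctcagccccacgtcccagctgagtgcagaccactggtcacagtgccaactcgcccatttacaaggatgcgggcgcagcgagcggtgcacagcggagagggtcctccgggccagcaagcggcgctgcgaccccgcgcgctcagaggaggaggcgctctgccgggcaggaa
Mrpl34, chr8:71464676-71464925, plus strand: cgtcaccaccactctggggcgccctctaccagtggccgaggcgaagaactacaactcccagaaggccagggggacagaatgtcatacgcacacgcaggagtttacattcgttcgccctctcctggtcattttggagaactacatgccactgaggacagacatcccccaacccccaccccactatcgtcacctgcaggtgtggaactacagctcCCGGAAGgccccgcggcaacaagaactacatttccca
Mrpl12, chr11:120484387-120484612, plus strand: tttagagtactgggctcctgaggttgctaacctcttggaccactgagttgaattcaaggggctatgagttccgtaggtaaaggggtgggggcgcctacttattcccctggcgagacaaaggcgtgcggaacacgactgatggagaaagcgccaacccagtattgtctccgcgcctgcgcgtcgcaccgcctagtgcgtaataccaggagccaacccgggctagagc
Mrps18a, chr17:46110754-46110985, plus strand: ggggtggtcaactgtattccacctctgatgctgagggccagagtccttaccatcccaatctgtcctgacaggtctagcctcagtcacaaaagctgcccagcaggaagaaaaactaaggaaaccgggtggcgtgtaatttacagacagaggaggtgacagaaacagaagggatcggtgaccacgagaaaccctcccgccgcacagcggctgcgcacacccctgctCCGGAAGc
Mrps18c, chr5:100798599-100798626, plus strand: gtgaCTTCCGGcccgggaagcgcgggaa
In Mrpl34 and Mrps18a the letters begin 37 and 26 bases before the RefSeq start and read in the direction of the gene. In Mrps18c they read on the other strand, within the 28 bases left between the annotated exons of Mrps18c and of Helq, a DNA helicase gene that points the other way.

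The share of new RNA rose more slowly in the median of the 78 genes than in the median of all genes. The median NTR of the members was 0.825% ± 0.332 (SD, n = 2 libraries) at 15 min, 4.34% ± 0.322 after 30 min, 12.6% ± 0.697 after 60 min, 18.2% ± 2.00 after 90 min and 26.1% ± 1.10 after 120 min. Over the 9065 genes with at least 100 counts on average, the medians of the same libraries were 1.00% ± 0.474, 5.21% ± 0.120, 15.5% ± 0.410, 24.4% ± 1.40 and 35.4% ± 0.523. At 120 min the 2 libraries gave 26.9% and 25.4% for the members and 35.8% and 35.0% for all genes, so that the libraries did not overlap, and 64 of the 78 members were below the all-gene median. At 15 min, 21 members in replicate A and 20 in replicate B were listed with an NTR of 0, and the medians of members and all genes lay within the spread between replicates.

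**Figure D1:**
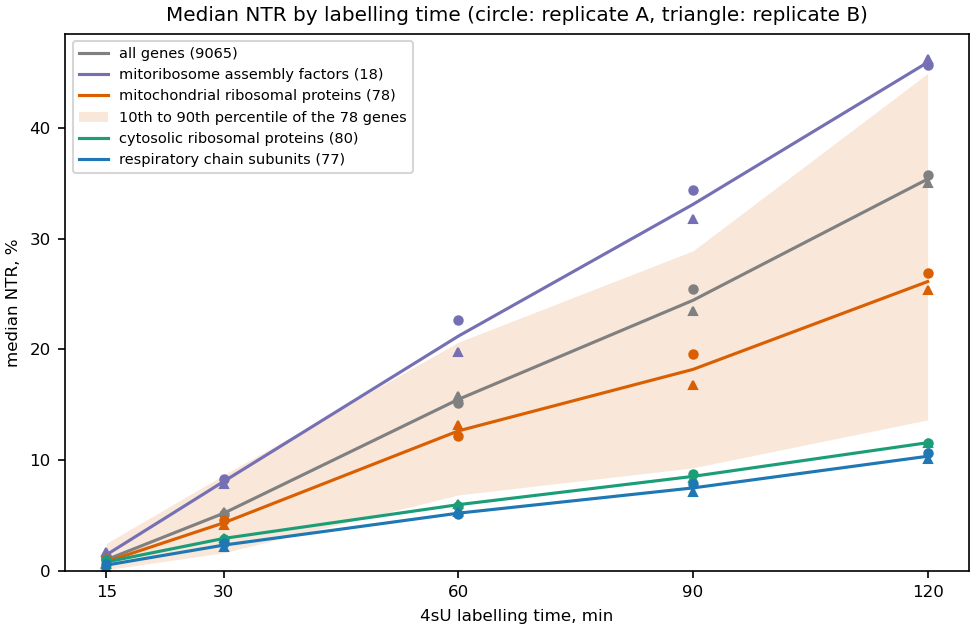
Median NTR in percent (vertical axis) against labelling time in minutes (horizontal axis) for the 78 members and 4 other sets of genes, with circles for replicate A, triangles for replicate B and lines through their mean. The members run from 0.825% after 15 min to 26.1% after 120 min, between the cytosolic ribosomal protein and respiratory chain genes below and all genes and assembly factors above.

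In 75 of the 78 members both 120 min libraries were above both 60 min libraries, and in 64 both were above both 90 min libraries. The matching shares over all genes were not computed. The all-gene median also rose, from 15.5% at 60 min to 24.4% at 90 min and 35.4% at 120 min, so these counts are not read as particular to the members. The order of the members was shared between replicates, with a Spearman rho of 0.911 between the 120 min libraries, 0.888 after 90 min, 0.768 after 60 min, 0.613 after 30 min and 0.193 after 15 min. Across times it was 0.820 for 60 min A with 120 min B and 0.871 for 60 min B with 120 min A. These are descriptions across 78 genes, which are not independent replicates and share their counts' depth.

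Written as an apparent half-life (ln 2 times the labelling time over -ln(1-NTR), which holds only where RNA levels are constant), the members' median was 308 min ± 18.1 (SD, n = 2) at 60 min, 313 min ± 38.0 after 90 min and 275 min ± 13.5 after 120 min. Over all genes it was 247 min ± 7.22, 224 min ± 14.9 and 198 min ± 5.41, so that the all-gene estimate was lower at each longer duration. These medians cover genes whose NTR, as a fraction, lay between 0.01 and 0.99 in the library. The members' 60 and 90 min medians differed by less than the spread between replicates.

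Transcripts of related sets of genes lay on both sides. At 120 min the median NTR was 11.6% ± 0.00707 (SD, n = 2) for 80 cytosolic ribosomal protein genes and 10.4% ± 0.354 for 77 nuclear-encoded subunits of the respiratory chain and ATP synthase. It was 45.9% ± 0.392 for 18 assembly factors of the mitochondrial ribosome, 27.5% ± 3.09 for 10 mitochondrial translation factors, 36.1% ± 0.707 for 9 factors of mitochondrial transcription and RNA processing, and 19.5% ± 0.262 for 5 ribosomal proteins with other names. These 5 were Dap3, Ptcd3, Chchd1, Aurkaip1 and Gadd45gip1, and they ranged from 15.3% ± 1.65 (Chchd1) to 60.6% ± 1.31 (Gadd45gip1). No test of the differences between the lists was made.

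The order of the 2 subunits in median NTR differed between libraries. At 120 min the median was 26.2% and 25.3% in replicates A and B for the 51 large-subunit genes and 28.1% and 26.4% for the 26 small-subunit genes. In replicate B the small subunit was lower at the 4 shorter times, for example 16.2% against 18.5% at 90 min, and in replicate A it was higher at each. At 120 min the median was 26.2% and 24.9% for the 47 members classed as having bacterial relatives. For the 30 classed as found in mitochondria only it was 29.3% and 29.4%, and these values depend on that classing. No test of these differences was made.

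Single members covered a wide range. The mean NTR at 120 min ranged from 8.15% (Mrps21) to 78.5% (Mrpl44). It was under 10% in 1 member, from 10% to 20% in 24, from 20% to 30% in 25, from 30% to 40% in 16, from 40% to 50% in 6 and 50% or more in 6. By the authors' 90% intervals, 18 members lay above the members' median in both libraries, 21 lay below it in both, and the other 39 could not be set apart from it at this depth. The median width of these intervals was 9.30 percentage points in replicate A and 8.59 in replicate B.

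**Figure D2:**
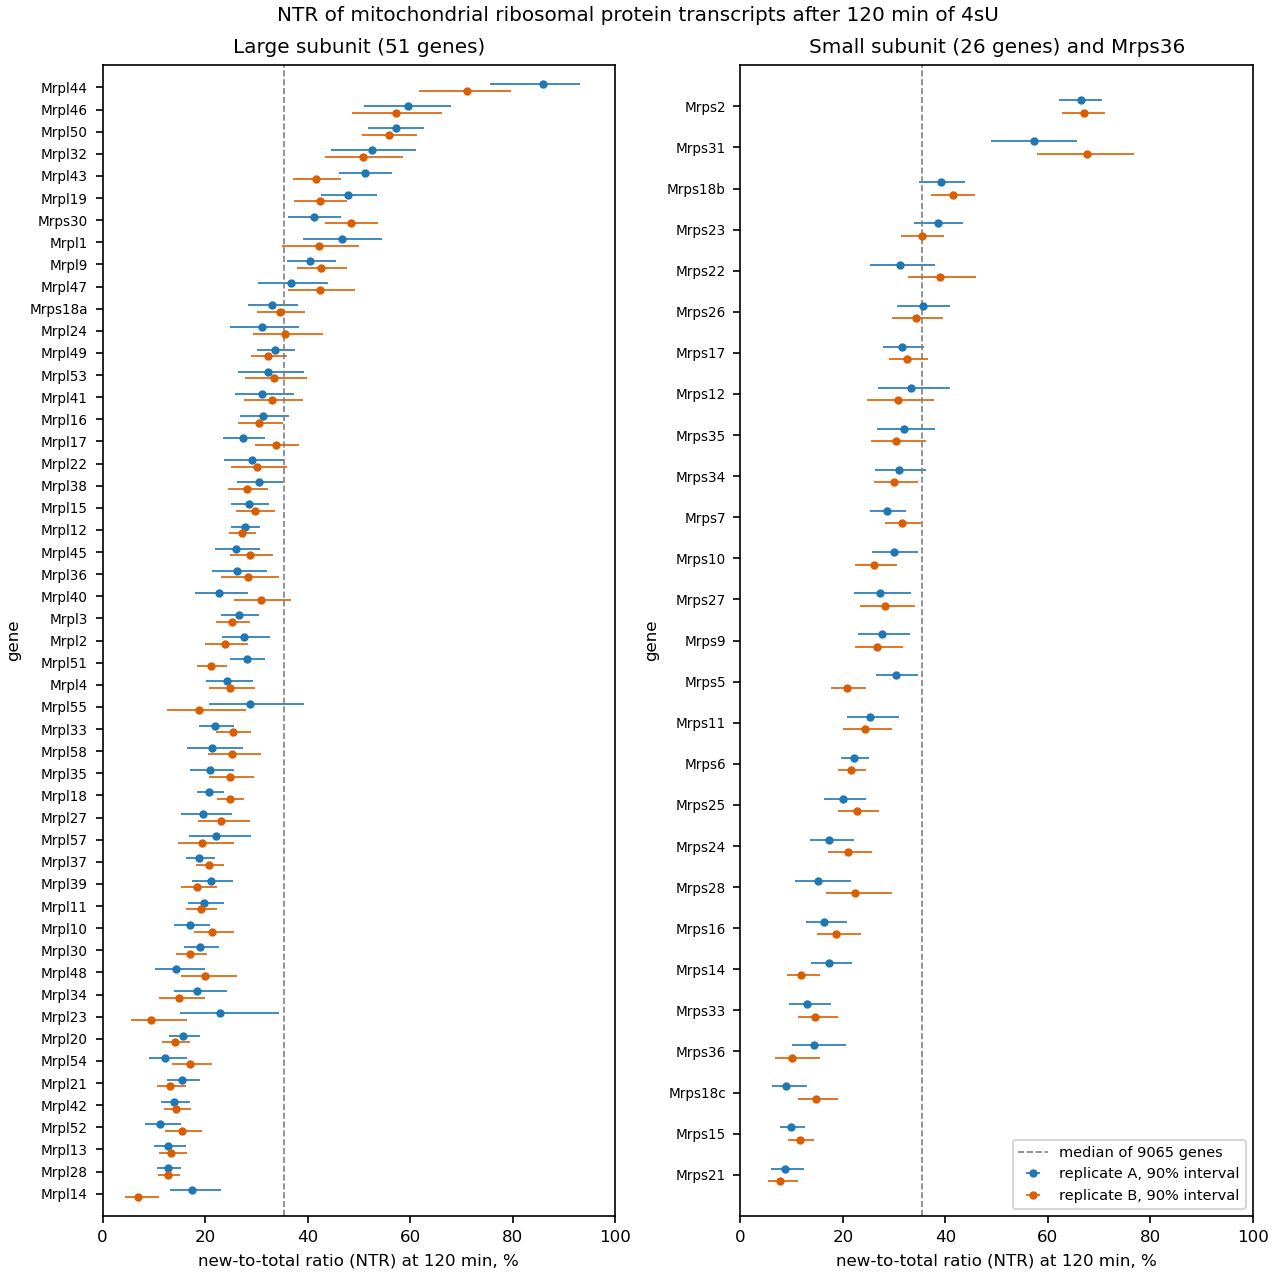
NTR at 120 min in percent (horizontal axes) of the 51 large-subunit genes (left) and of the 26 small-subunit genes with Mrps36 (right), each gene a line on the vertical axis in the order of its mean, with points for replicates A and B, bars for the authors' 90% intervals and a dashed line at the median of 9065 genes. Most genes lie left of the dashed line, and Mrpl44 at 78.5% and Mrps2 at 66.8% lie farthest to the right.

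The highest NTR belonged to Mrpl44, a large-subunit protein with an RNase III-like fold (plus strand of chromosome 1, 79776018 to 79781445; all locations are from GENCODE M21 on GRCm38, and the build the authors used is named in none of the sources used here). Its NTR was 5.04% and 0.11% in the 15 min libraries A and B, 8.87% and 23.7% after 30 min, 48.8% and 50.4% after 60 min, 76.2% and 67.8% after 90 min and 85.9% and 71.1% after 120 min. Its apparent half-life at 120 min was 54.7 min ± 17.4 (SD, n = 2). The 90% intervals at 120 min were 75.6% to 93.2% and 61.8% to 79.7%, and those of the next member, Mrps2, were 62.2% to 70.6% and 62.8% to 71.2%. The 2 genes were apart in replicate A and overlapped in replicate B. An exon of Mrpl44 shares bases with Wdfy1 on the other strand. No source used here says whether strand was used in counting, so the counts and NTRs of members that overlap a gene on the opposite strand are uncertain.

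Mrps2, a small-subunit protein of bacterial descent (chromosome 2, 28468066 to 28471178), was at 32.3% and 29.2% after 60 min, 48.5% and 39.5% after 90 min and 66.5% and 67.1% after 120 min. Its exons share no bases with another annotated gene. At 72.1 CPM over the 12 libraries it was also abundant, and the product of NTR and CPM, its new RNA, was 46.3 CPM at 120 min, the highest of the 78. The same product had a median of 9.40 CPM over the members and was lowest for Mrpl23, at 1.51 CPM. Mrpl12 came to 36.4 CPM. This product is not scaled by gene length, and its order per kilobase was not computed.

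Mrps31, a small-subunit protein found in mitochondria only (chromosome 8, 22411361 to 22429665), had 57.3% and 67.6% after 120 min. Mrpl46 was at 59.5% and 57.3%, and Mrpl50 (chromosome 4, 49512596 to 49521093) at 57.3% and 56.0%. The order among Mrps31, Mrpl46 and Mrpl50 was not beyond their intervals, which in both libraries all held the range from 58.0% to 61.4%. All 3, like Mrpl44, encode proteins without a relative in bacterial ribosomes.

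At the low end stood Mrps21, a small-subunit protein of bacterial descent (chromosome 3, 95862634 to 95871519). Its NTR was 7.43% and 2.32% after 60 min, 8.64% and 3.08% after 90 min and 8.60% and 7.70% after 120 min, which corresponds to an apparent half-life of 982 min ± 80.0 (SD, n = 2). Mrps15 (chromosome 4, 126046925 to 126055532), which binds rRNA early in assembly of the small subunit in bacteria, was at 9.77% and 11.5% after 120 min, and Mrps18c at 8.95% and 14.7%. For Mrpl14 (chromosome 17, 45686322 to 45698495), the values were 17.5% and 6.92%, and the 90% intervals of its 2 libraries did not overlap. Mrps36 was at 14.4% and 10.1%. The intervals of Mrps21, Mrps15 and Mrps36 overlapped one another in both libraries, so that their order is not settled.

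The Mrps18 family shows how far related members can differ. Mrps18a, Mrps18b and Mrps18c encode relatives of a single bacterial protein and occupy different places in the particle. At 120 min Mrps18a was at 33.0% and 34.5%, Mrps18b at 39.1% and 41.4% and Mrps18c at 8.95% and 14.7%. The intervals of Mrps18c, 6.20% to 13.0% and 11.2% to 19.1%, lay below those of both relatives in each library. Levels per kilobase were 20.0 CPM for Mrps18a, 53.1 CPM for Mrps18b and 31.5 CPM for Mrps18c. In GENCODE M21 an exon of Mrps18b shares bases with the antisense gene Gm16279, and an exon of Mrps18c shares bases with Gm43511 on its own strand.

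Mrps18c was also a case of neighbours that start close together and differ in NTR. Within 1000 bases of the start of 33 members lay the start of a protein-coding gene on the other strand, and for 12 of them the 2 genes did not overlap and the neighbour averaged 100 counts or more. The NTR at 120 min was higher in the neighbour in 7 of these pairs and in the member in 5, and it differed by more than 10 percentage points in 8, with a median difference of 15.7 points. Helq, whose start lies 29 bases from that of Mrps18c, was at 66.6% and 58.9%. This pair and the next 3 were named after their values were seen. Ska3, which encodes a kinetochore protein and starts 49 bases from Mrpl57, was at 81.3% and 83.0%, against 22.1% and 19.4% for Mrpl57. Psma2, a proteasome subunit gene that starts 75 bases from Mrpl32, was at 15.9% and 13.9%, against 52.7% and 50.8% for Mrpl32. Fau, which encodes a cytosolic ribosomal protein and starts 59 bases from Mrpl49, was at 12.6% and 12.8%, against 33.7% and 32.3% for Mrpl49.

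Mrpl46 and Mrps11, both members, overlap at their starts by 413 bases on chromosome 7 (Mrpl46 at 78775236 to 78783531 on the minus strand, Mrps11 at 78783119 to 78792989 on the plus strand). Mrpl46 was at 59.5% and 57.3% after 120 min and Mrps11 at 25.3% and 24.4%, with no overlap of their intervals. Exons of 33 of the 78 members share bases with another annotated gene, in 8 cases with a gene on the same strand, and no source used here says how reads from shared bases were assigned.

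Across the 78 members, the NTR at 120 min had a Spearman rho of 0.410 with coding length (0.253 over all 8957 genes), 0.292 with the length of the 3′ untranslated region (0.314) and -0.268 with the level per kilobase (-0.429 over 9065 genes). With the share of uridine it was 0.222 (0.0501). The pentamer ATTTA, a core of AU-rich elements, stood in the 3′ untranslated region of 45 members, whose median NTR was 27.4%, and was not found in that of 33, whose median was 21.4%. Over all genes the medians were 39.5% with it and 26.5% without it, and longer regions hold it more often. Both the highest member, Mrpl44, and the lowest, Mrps21, were without it.

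Levels per kilobase of the authors' gene length covered a wide range, from 2.47 to 100.0 CPM with a median of 20.1, against 14.0 over all 9065 genes. Mrpl12 (chromosome 11, 120484613 to 120489065), a stalk protein that contacts translation factors and is also known to bind the mitochondrial RNA polymerase, was highest at 100.0 CPM per kilobase, followed by Mrpl18 at 75.9 and Mrpl28 at 71.0. Mrpl10, which anchors the stalk, was at 24.5, and Mrpl11 of the same region at 17.8. Mrps12, at the decoding site, was at 24.0 and Mrpl58, a peptidyl-tRNA hydrolase built into the large subunit, at 10.7. The lowest were Mrpl23 at 2.47, Mrpl48 at 4.41 and Mrpl1 at 5.61. Their gene lengths of 3715, 4285 and 3556 bases were above the members' median of 1866.5. The coding transcript of Mrpl23 taken from GENCODE M21 has 736 bases, so its place as the lowest depends on the authors' length. Exons on the opposite strand overlap those of Mrpl12 (Gm16755), Mrpl18 (Tcp1), Mrpl10 (Gm11574), Mrpl58 (Ict1os) and Mrpl48 (Rab6a).

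The level of Mrpl12 was 154 and 122 CPM without 4sU (A and B), 119 and 134 after 15 min, 123 and 123 after 30 min, 139 and 127 after 60 min, 138 and 137 after 90 min and 130 and 136 after 120 min. No duration stood apart, and neither of its fold changes at 120 min passed the test (log2 fold change -0.05 ± 0.0828, SE, edgeR adjusted p = 0.722 against no4sU, and 0.07 ± 0.0836, adjusted p = 0.594 against 15 min). Its NTR was 27.8% and 27.1% after 120 min.

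Read shares were then compared between durations. No member passed the threshold (adjusted p below 0.05 by edgeR's quasi-likelihood test with Benjamini-Hochberg adjustment over 11564 genes) at 15, 30, 60 or 90 min against no4sU. The counts of members at an unadjusted p under 0.05 were 3, 4, 4 and 2 in that order, and DESeq2 also called 0 at each, with 1, 0, 1 and 0 unadjusted. Shares of all genes at an unadjusted p under 0.05 are not given in this text, so such counts are not set against a background. For adjusted calls the background was low as well. Of all genes tested, 0.0% were higher and 0.0% lower at 15 and at 30 min, 0.00865% higher and 0.00865% lower at 60 min, and 0.45% higher and 0.943% lower at 90 min. The median log2 fold change of the members was -0.07, -0.06, -0.04 and -0.00 at 15, 30, 60 and 90 min, while that of all genes stayed between 0.00 and 0.01.

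At 120 min against no4sU, 1 member was higher and 0 lower, where 5.43% of all genes were higher and 8.78% lower. The members' median log2 fold change was 0.08, with 57 of 78 positive. The share of all genes with a positive change in this fit is not given here. By CPM + 1 against the no4sU mean, 52 and 55 members were higher in 120 min replicates A and B. The shares of all genes were 53.1% and 51.9%. The called member was Mrps6, a small-subunit protein of bacterial descent (chromosome 16, 92058270 to 92112227). It was at 77.9 and 73.0 CPM without 4sU (A and B), 74.0 and 66.1 after 15 min, 74.2 and 73.2 after 30 min, 79.5 and 71.9 after 60 min, 82.3 and 78.3 after 90 min and 92.7 and 83.9 after 120 min. Both 120 min libraries were above the other 10, and the log2 fold change was 0.23 ± 0.0740 (SE, edgeR adjusted p = 0.0454). Exons of Mrps6 share bases with Slc5a3 and Gm49711 on the same strand, so its count is uncertain. Its call was lost by library size alone, with an offset for gene length, with only the 2 groups in the fit and with DESeq2. It was also lost without no4sU replicate B or either 120 min library. DESeq2 called 0 members, with 2 at an unadjusted p under 0.05, against 9 by edgeR. Shares of all genes at that cut-off are not given here, so these counts are not read as results about the members.

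The sign of these comparisons depended on which no4sU library served as the reference. Members were higher in no4sU replicate A than in B in 66 of 78 cases, with a median log2 difference of 0.16, against 50.2% of all 9065 genes and a median of 0.00. This difference between replicates exceeded that of the labelled groups, whose median A minus B over the members ran from -0.05 (15 min) to 0.02 (60 min). Its Spearman rho with gene length was -0.356 over the members and -0.576 over all genes. Members are short genes, with a median length of 1866.5 bases against 3596, and 63 of 78 were under the all-gene median. Without no4sU replicate A, 17 members were higher and 1 lower at 120 min (14.2% and 16.0% of all genes), and without no4sU replicate B, 0 were higher and 2 lower (8.84% and 7.41%). The median was 0.16 in the first case and -0.03 in the second. Without no4sU replicate B, 9 members were lower at 15 min (3.76% of all genes), 7 at 30 min (4.01%), 7 at 60 min (3.08%) and 2 at 90 min (3.01%). Scaled by library size alone, 0 members were higher and 2 lower at 120 min (14.6% of all genes lower), and with an offset for gene length 0 were higher and 1 lower (10.1% of all genes lower). What sets no4sU replicate A apart was not tested, and no direction against no4sU is given for the members as a group.

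**Figure D3:**
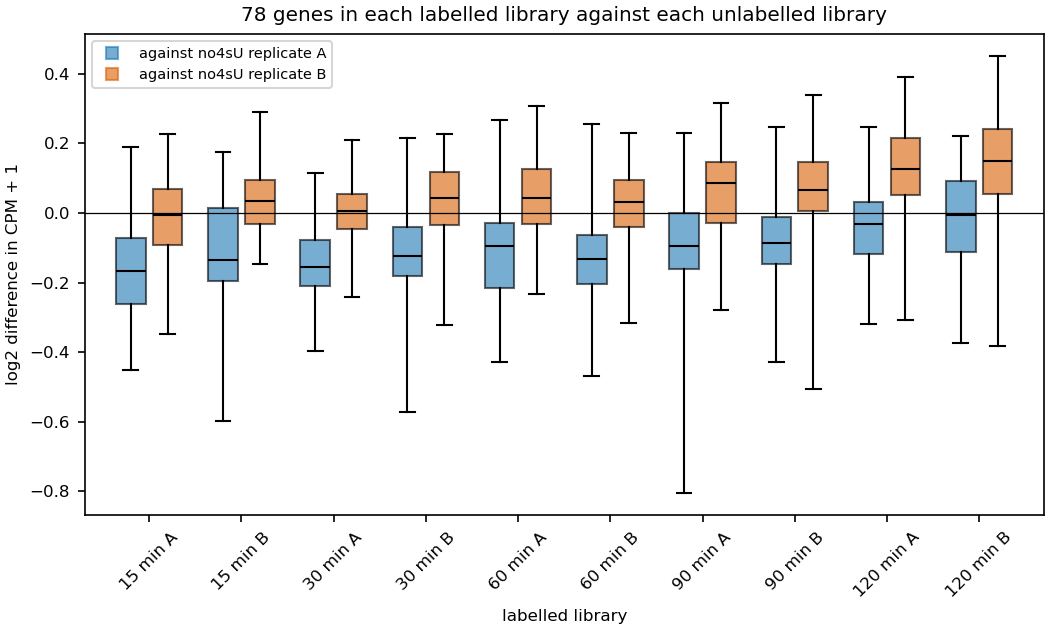
Log2 difference in CPM + 1 (vertical axis) of the 78 genes in each labelled library (horizontal axis), against no4sU replicate A (blue) and no4sU replicate B (orange); boxes span the quartiles with the median as a line, and whiskers the whole range. At 120 min the medians are -0.03 and -0.01 against replicate A and 0.13 and 0.15 against replicate B.

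The direct comparison of 120 with 15 min does not use the no4sU libraries for its fold changes. Here 13 members were higher and 0 lower, where 7.93% of all genes were higher and 11.3% lower. At an unadjusted p under 0.05 there were 26 members. The share of all genes at that cut-off is not given here, so this count is not read as a result about the members. The members' median log2 fold change was 0.12, with 66 of 78 positive, against 0.01 over all genes, of which 51.0% were positive. Both 120 min libraries were above both 15 min libraries in 44 members and below both in 6, with shares over all genes of 33.3% and 32.7%. CPM are shares of a library, so a higher share need not mean more RNA.

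The split depended on the scaling. By library size alone 3 members were higher and 2 lower (3.68% and 16.2% of all genes), with 54 of 78 positive, and with the offset for gene length 5 were higher and 3 lower (9.56% and 10.8% of all genes), with 48 positive. The members' median stayed above 0, at 0.07 under each. The shares of all genes with a positive change under these scalings are not given here. DESeq2 called 4 higher and 0 lower of 76 with an adjusted p (6.44% and 10.1% of all genes), all 4 among the 13. A fit without the no4sU libraries, chosen after seeing the data, called 20 higher and 0 lower (15.2% and 16.9%), which held all 13. With only the 2 groups in the fit, 20 were higher and 1 lower (15.4% and 18.3%). Leaving out 1 library lowered the counts of members and of all genes. Without 15 min replicate A, 2 members were higher (1.18% of all genes higher, 4.44% lower), and without 15 min replicate B, 3 (2.87% and 5.99%). Without 120 min replicate A, 4 members were higher (3.13% and 5.57%), and without 120 min replicate B, 1 (1.51% and 4.52%). None was lower in these 4 fits.

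The 13 members comprised 10 of the large and 3 of the small subunit. The largest rise was that of Mrpl34, a small protein of the large subunit of bacterial descent (chromosome 8, 71464959 to 71465747). It was at 24.1 and 19.2 CPM without 4sU, 20.4 and 18.3 after 15 min, 22.3 and 19.7 after 30 min, 24.0 and 21.4 after 60 min, 20.5 and 20.2 after 90 min and 25.5 and 26.6 after 120 min. The 120 min libraries were the highest, with 60 min replicate A and no4sU replicate A next. The log2 fold change against 15 min was 0.43 ± 0.114 (SE, edgeR adjusted p = 0.0122), and against no4sU it was 0.28 ± 0.111 (adjusted p = 0.0885).

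Mrps6 had the smallest adjusted p of the 13, at 0.00486 by edgeR, with a log2 fold change of 0.33 ± 0.0751 (SE). Mrpl28, a large-subunit protein of bacterial descent (chromosome 17, 26123500 to 26126613), was at 73.3 and 75.9 CPM at 15 min, 77.6 and 82.8 after 30 min, 81.0 and 73.7 after 60 min, 82.0 and 79.0 after 90 min and 89.3 and 91.2 after 120 min, with 84.7 and 75.7 without 4sU. Its 120 min values exceeded all others. Its log2 fold change was 0.28 ± 0.0709 (SE, edgeR adjusted p = 0.0105), with 12.7% and 12.8% of its RNA new after 120 min. Mrpl34, Mrps6 and Mrpl28 were also called by library size alone and by DESeq2, and lost the call with the offset for gene length.

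Mrpl42, found in mitochondria only (chromosome 10, 95480805 to 95501940), was at 52.5 and 54.8 CPM at 15 min and 62.3 and 68.1 after 120 min, with 63.5 in no4sU replicate A. Its log2 fold change was 0.28 ± 0.0818 (SE, edgeR adjusted p = 0.0204). Mrps25, also of mitochondria only (chromosome 6, 92169525 to 92184033), was at 31.5 and 35.2 CPM at 15 min and 39.3 and 41.5 after 120 min, with a log2 fold change of 0.28 ± 0.0831 (adjusted p = 0.0236). Both kept their call with the offset for gene length, as did Mrpl17 (chromosome 7, 105803206 to 105811099), whose length of 7300 bases is the longest of the members. It rose by 0.25 ± 0.0825 (log2, edgeR adjusted p = 0.0422). For Mrpl42 the offset used the authors' gene length of 3277 bases, while its coding transcript taken from GENCODE M21 has 666. Whether its call would hold at the shorter length was not tested. By library size alone the edgeR adjusted p was 0.0596 for Mrpl42, 0.0642 for Mrps25 and 0.115 for Mrpl17, so that none of the 3 was called. DESeq2 called Mrpl42 (adjusted p = 0.0462) but not Mrps25 (0.0848) or Mrpl17 (0.105). An exon of Mrps25 shares bases with Nr2c2 on the other strand.

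Mrpl14, which lies at the interface of the subunits, was at 21.9 and 19.7 CPM at 15 min and 27.6 and 26.8 after 120 min, but at 30.3 in no4sU replicate A. Its log2 fold change was 0.39 ± 0.121 (SE, edgeR adjusted p = 0.0310). One of its exons shares bases with Tmem63b on the other strand. The other 6, Mrpl52, Mrpl41, Mrpl54, Mrpl30, Mrpl38 and Mrps15, had log2 fold changes from 0.35 (Mrpl52) to 0.21 (Mrps15) and edgeR adjusted p-values from 0.0319 (Mrpl30) to 0.0490 (Mrpl41), so that all stood near the threshold. Neither Mrpl14 nor any of these 6 was called by library size alone, with the offset for gene length or by DESeq2. Mrpl52, Mrpl41, Mrpl54 and Mrpl38 have no relatives in bacterial ribosomes. In no4sU replicate A, Mrpl52 stood at 46.6 CPM and Mrpl54 at 43.8, both within the spans of the 120 min libraries, 41.8 to 47.4 and 40.7 to 44.2.

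**Figure D4:**
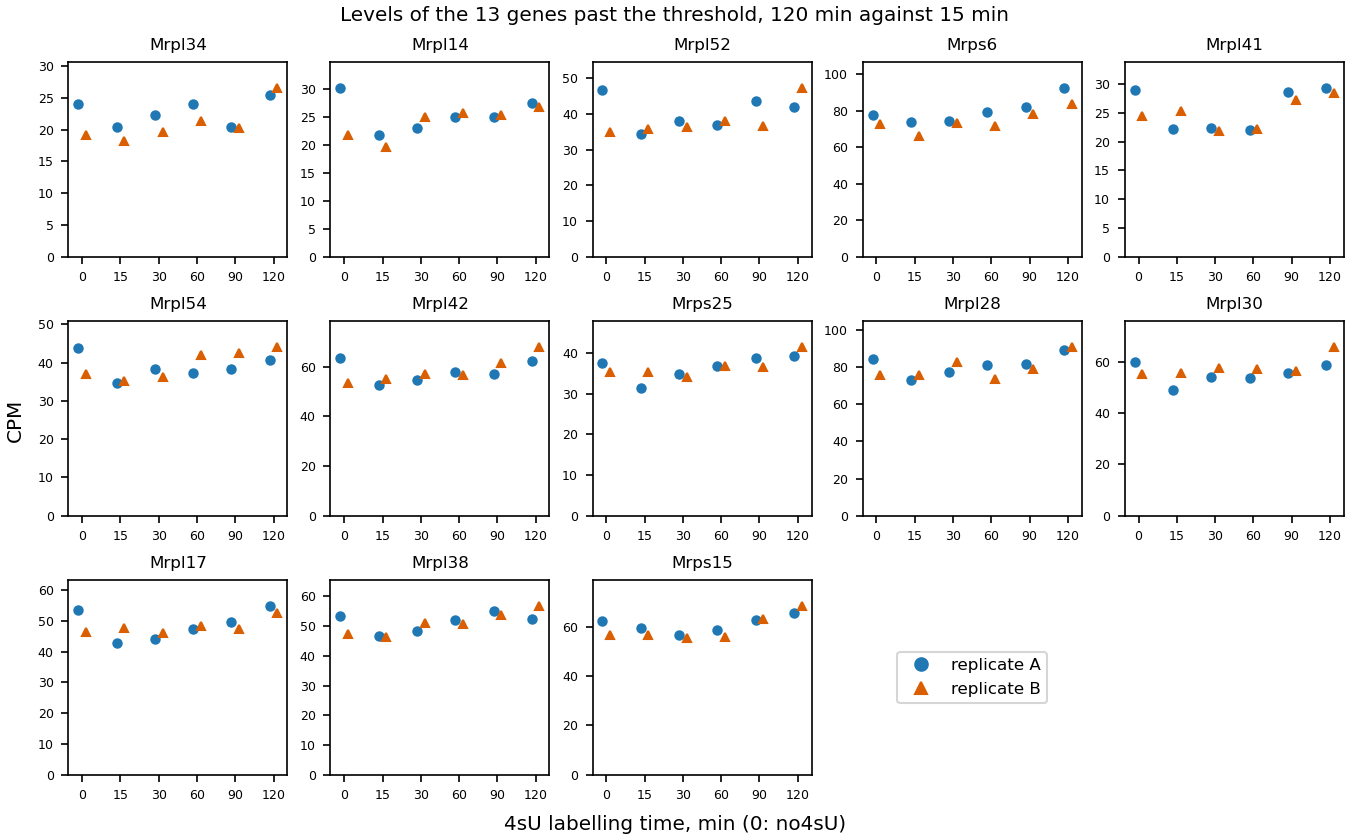
CPM (vertical axes, from 0) of the 13 genes past the threshold for 120 min against 15 min, by labelling time in minutes (horizontal axes, 0 for no4sU), with circles for replicate A and triangles for replicate B. In each panel both 120 min libraries lie above both 15 min libraries, and in some, such as Mrpl14 with 30.3 CPM, no4sU replicate A is within or above the range of the 120 min libraries.

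The most negative log2 fold change was that of Mrpl1, a large-subunit protein of bacterial descent (chromosome 5, 96209493 to 96266727), and it did not pass. It was at 20.1 and 21.8 CPM at 15 min, 20.4 and 15.3 after 90 min and 17.7 and 17.0 after 120 min, with a log2 fold change of -0.27 ± 0.116 (SE, edgeR adjusted p = 0.104). By library size alone it was at -0.33 and passed (adjusted p = 0.0493), together with Mrpl50 at -0.23 (adjusted p = 0.0438). With only the 2 groups in the fit Mrpl1 also passed, at -0.28 (edgeR adjusted p = 0.0308). With the offset for gene length, Mrpl44 at -0.31, Mrps18b at -0.27 and Mrpl50 at -0.23 passed as lower (edgeR adjusted p = 0.0421, 0.0130 and 0.0465).

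Change in read share and NTR were related across the members. The Spearman rho between the log2 fold change for 120 against 15 min and the NTR at 120 min was -0.530 over the 78 members and -0.763 over all 9065 genes, and both measures use the 120 min libraries. Adjusted for gene length, the members' rho was -0.490, and with the fold changes from the offset for length it was -0.366. The members were then split into 3 groups by NTR. All genes were not split in this way, and their rho was the stronger, so the gradient below is not read as particular to the members. Of the 26 members with the lowest NTR (8.15% to 20.7%), 26 had a positive log2 fold change, with a median of 0.19 and 8 calls. In the middle 26 (21.4% to 30.5%), 23 were positive, with a median of 0.11 and 3 calls. In the 26 with the highest NTR (30.6% to 78.5%), 17 were positive, with a median of 0.05 and 2 calls. By library size alone the medians were 0.14, 0.05 and -0.01, and with the offset for length 0.11, 0.08 and -0.02, in the same order. The median gene length in these groups was 1136, 1923 and 2362 bases.

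**Figure D5:**
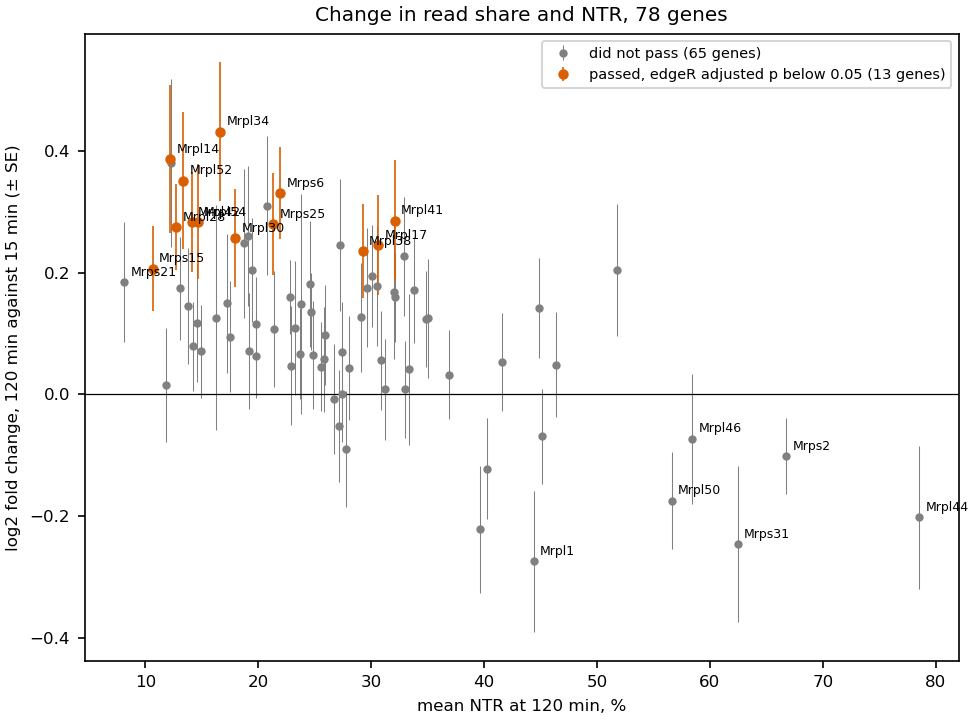
Log2 fold change for 120 against 15 min with its SE (vertical axis) against the mean NTR at 120 min in percent (horizontal axis) for the 78 genes, with the 13 genes past the threshold in orange. The called genes lie at NTRs from 10.7% to 32.1%, and Mrpl44, Mrps2, Mrps31, Mrpl46 and Mrpl50, the 5 with the highest NTR, lie below 0.

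The 5 members with the highest NTR all had negative log2 fold changes for 120 against 15 min, from -0.07 (Mrpl46) to -0.25 (Mrps31), and none passed (edgeR adjusted p from 0.127 to 0.668). Mrps2, the most precise of them, was at 75.5 and 73.0 CPM at 15 min, 78.5 and 75.8 after 30 min, 71.1 and 70.1 after 60 min, 69.6 and 68.9 after 90 min and 70.8 and 67.8 after 120 min, with 72.4 and 71.2 without 4sU. Its 120 min values lay below those at 15 and 30 min but overlapped those at 60 and 90 min, with a log2 fold change of -0.10 ± 0.0631 (SE, edgeR adjusted p = 0.275). Of the 5 members with the lowest NTR, Mrps15 and Mrpl14 passed as higher. Mrps21 was at 0.18 ± 0.0992 (adjusted p = 0.198), Mrps36 at 0.38 ± 0.138 (adjusted p = 0.0586) and Mrps18c at 0.02 ± 0.0942 (adjusted p = 0.931).

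Related lists gave the following counts for 120 against 15 min, beside the 13 higher and 0 lower of 78 members. Of 80 cytosolic ribosomal protein genes 73 were higher and 0 lower, with a median log2 fold change of 0.24, and the largest was Rpl35a at 0.37. Of 77 nuclear-encoded respiratory chain and ATP synthase genes 37 were higher and 0 lower, with a median of 0.20, led by Ndufa1 at 0.56 and Atp5o at 0.54. Among the 5 ribosomal proteins with other names, Chchd1 was higher at 0.57 ± 0.103 (SE, edgeR adjusted p = 0.000986). Of 12 translation factors edgeR called 0, with 2 at an unadjusted p under 0.05, and DESeq2 also called 0. The 25 assembly factors held 1 call, Mterf3, which encodes a factor needed for biogenesis of the large subunit and was lower, at -0.37 ± 0.117 (adjusted p = 0.0300), and the median was -0.02. The 10 genes of mitochondrial transcription and RNA processing also held 1, Trmt10c, a subunit of mitochondrial RNase P, which was lower, at -0.45 ± 0.0970 (adjusted p = 0.00349), and the median was -0.07.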

How the data were processed

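The deposited table holds, for 17419 genes and 12 libraries, the authors' read counts per gene, their NTR as a fraction with the bounds of a 90% interval, and gene lengths. The counts are estimated counts as deposited, since 20.4% of values were not whole (tolerance 1e-06; 26.0% for the members). They were rounded to whole numbers, with 0.5 going to the even neighbour. The submitters' processing notes name cutadapt, Bowtie2 2.3.0 and STAR 2.7.10b without saying what each did, and the build and counting tool are not given in the sources read. All 12 columns matched a labelled sample, and 0 belonged to other samples. For the no4sU libraries the table gives read counts and no NTR.

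Counts were tested with edgeR 4.0.16 (limma 3.58.1, R 4.3.3) by the quasi-likelihood test, after filterByExpr (11564 genes) and TMM (factors 0.970 to 1.02), with all 6 groups in 1 fit, a threshold of 0.05 and 6 residual degrees of freedom. Descriptive log2 differences used CPM + 1. With 2 libraries a group, no exact permutation test was made, as its smallest p is 0.333. NTR medians cover genes averaging 100 counts or more, and the SD describes 2 libraries. Alternatives were DESeq2 1.42.0, library size alone, a loess offset for gene length, no filter, a replicate block, only the compared groups, and leaving out each library. Other steps used matplotlib 3.10.9, scipy 1.17.1, pandas 2.3.3 and numpy 2.4.6 in Python 3.11.15. Members and lists were chosen with earlier results of these data known. Genes were named by rule: up to 12 members with the largest called changes per comparison, the 5 highest and 5 lowest in NTR, the 3 highest and 3 lowest in level per kilobase, and members with a particular role (the Mrps18 family, Mrpl10, Mrpl11, Mrpl12, Mrps12, Mrps36 and Mrpl58). Mrps15 was the remaining called member.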

Additional observations from a re-analysis of the deposited data

How the results depend on the processing

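Counts of called members depended on settings and on single libraries. For 120 min against 15 min (13 calls) edgeR called 5 by library size alone, 8 with the length offset, 21 with only the 2 groups (1 of them lower, Mrpl1) and 20 in the fit without no4sU, which was chosen after seeing the data, while DESeq2 called 4. Leaving out 1 library gave 1 (without 120 min replicate B) to 4 (without 120 min replicate A). For 120 min against no4sU (1 call) the counts were 2 by library size alone, 0 with DESeq2, 0 with only the 2 groups, and 0 (without either 120 min library) to 18 (without no4sU replicate A). Against no4sU at 15, 30, 60 and 90 min, leaving out 1 library gave 0 to 9, 0 to 7, 0 to 7 and 0 to 2, each highest without no4sU replicate B. With the replicate block 14 and 1 members were called after 120 min against 15 min and no4sU, and the block changed no other count. Shares of all genes called with the block are not given here, so these counts are not set against a background. Over 15 pairs of groups, the deviations of same-letter libraries correlated between -0.0364 and 0.0744 across all genes tested. These values gave no sign of pairing by letter, but counting noise in genes with few reads lowers such correlations. Whether letters were paired by design is not stated in the labels. The members' median log2 fold change for 120 min against no4sU was 0.0098 by library size alone, 0.043 with the length offset, and, with 1 library left out, -0.031 (no4sU B omitted) to 0.16 (no4sU A omitted). Against 15 min it was 0.067, 0.066 and 0.11 to 0.13 in that order. For 120 min against no4sU the sign turned with the length offset for Mrpl14 (-0.044) and Mrpl54 (-0.047). Leaving out 1 library gave -0.16 to 0.31 for Mrpl14, -0.000364 to 0.21 for Mrpl17, -0.000990 to 0.24 for Mrpl41, -0.059 to 0.36 for Mrpl52 and -0.043 to 0.20 for Mrpl54, each lowest without no4sU replicate B. The median NTR was 1.86% at 15 min and 5.69% at 30 min from the posterior mean. Over the 2 members with at least 1000 counts it was 0.443% at 15 min, 3.36% at 30 min and 11.3% at 60 min, with apparent half-lives of 361 min at 60 min and 292 min at 120 min. The cause of these shifts was not tested. For the 13 called genes and Mrpl1, the only single genes compared across settings, 194 values of the 120 min comparisons kept their direction and their side of the threshold, 81 lost the call, 12 gained one and 7 turned sign. By the 90% intervals, 39 members could not be set apart from the members' median NTR at 120 min.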
